A study of Mus musculus with 101 samples.

Results

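The genes described here are 9 markers of fat depot identity and of mesothelium: Tbx15, Shox2, En1, Irx3, Wt1, Tcf21, Upk3b, Msln and Krt19. They were taken by name, through their Entrez IDs, from 24475 IDs in each of 2 count tables, and all 9 were found in both. Male C57BL/6NTac mice were studied by mRNA sequencing of 2 white fat depots. There were 101 libraries, 51 of epididymal fat, a visceral depot beside the testis, and 50 of subcutaneous fat. Inhbe encodes the activin E subunit, a protein secreted mainly by the liver.

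In the over-expression experiment mice on chow carried an AAV8 vector driving mInhbe or GFP in the liver, with 10 libraries for each vector and depot. The loss-of-function experiment used no vector: Inhbe KO and WT mice ate a high-fat diet (HFD) or chow. Epididymal fat gave 8 KO HFD, 8 WT HFD, 7 KO chow and 8 WT chow libraries. Subcutaneous fat gave 8 KO HFD, 7 WT HFD, 7 KO chow and 8 WT chow libraries. Of age, time on diet and the KO allele the sources used here say nothing. The labels name the epididymal samples' tissue only as white fat and give the depot in the title.

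White fat depots arise from different embryonic mesoderm and keep a positional code of developmental transcription factors into adult life. Visceral fat pads, unlike subcutaneous fat, are also covered by mesothelium, a simple epithelium that lines the body cavity. Tbx15 (a T-box factor), Shox2 (a homeodomain factor of limb and heart development), En1 (engrailed, a factor of dorsal and limb patterning) and Irx3 (an Iroquois homeodomain factor) are used as subcutaneous or developmental markers. Wt1 (a zinc-finger factor) and Tcf21 (a basic helix-loop-helix factor) mark visceral progenitors and stroma. Upk3b (uroplakin 3b, a membrane protein), Msln (mesothelin, a cell-surface glycoprotein) and Krt19 (a keratin of simple epithelia) mark mesothelial cells. Krt19 is also made by duct and gland epithelia.

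On GRCm38.p6, whose primary sequence mm10 names, the subcutaneous or developmental genes lie at chr3:99240348-99354260 (Tbx15), chr3:66971723-66981771 (Shox2), chr1:120602487-120607991 (En1) and chr8:91798511-91801654 (Irx3). The visceral factors lie at chr2:105126529-105173614 (Wt1) and chr10:22817263-22820143 (Tcf21). The mesothelial genes lie at chr5:136038496-136044993 (Upk3b), chr17:25748613-25754378 (Msln) and chr11:100140810-100145926 (Krt19). Counts are per whole gene, so exons cannot be told apart.

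Promoters of the 4 members below are shown because they come from the 2 sides of the depot code and because both epididymal genes fell on HFD. Each runs from 250 bases before to 50 bases after the annotated start, 5′ to 3′ on the gene's strand, from RefSeq on GRCm38.p6. Capitals mark matches, on either strand, to TATAAA, to GGAATG (printed as CATTCC on the other strand; the core bound by TEAD factors), or to the E-box words CAGCTG and CACGTG. No matches overlapped.
Upk3b, chr5:136038246-136038545, plus strand: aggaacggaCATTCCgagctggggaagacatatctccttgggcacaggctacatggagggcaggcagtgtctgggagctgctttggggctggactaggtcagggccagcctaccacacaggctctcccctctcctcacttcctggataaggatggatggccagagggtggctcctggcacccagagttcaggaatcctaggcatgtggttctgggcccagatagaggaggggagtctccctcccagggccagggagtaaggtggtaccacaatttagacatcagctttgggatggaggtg
Tcf21, chr10:22820094-22820393, minus strand: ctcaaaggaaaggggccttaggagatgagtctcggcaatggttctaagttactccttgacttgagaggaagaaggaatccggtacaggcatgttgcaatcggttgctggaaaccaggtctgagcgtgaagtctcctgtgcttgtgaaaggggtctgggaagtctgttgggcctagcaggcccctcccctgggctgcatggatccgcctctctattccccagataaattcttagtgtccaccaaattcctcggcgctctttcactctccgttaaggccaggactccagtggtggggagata
Shox2, chr3:66981722-66982021, minus strand: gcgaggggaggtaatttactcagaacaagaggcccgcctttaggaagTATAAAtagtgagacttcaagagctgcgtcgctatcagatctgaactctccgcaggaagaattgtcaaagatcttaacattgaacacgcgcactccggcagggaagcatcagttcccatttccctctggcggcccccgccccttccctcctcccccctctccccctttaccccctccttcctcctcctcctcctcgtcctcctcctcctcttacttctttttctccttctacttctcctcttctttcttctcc
En1, chr1:120602237-120602536, plus strand: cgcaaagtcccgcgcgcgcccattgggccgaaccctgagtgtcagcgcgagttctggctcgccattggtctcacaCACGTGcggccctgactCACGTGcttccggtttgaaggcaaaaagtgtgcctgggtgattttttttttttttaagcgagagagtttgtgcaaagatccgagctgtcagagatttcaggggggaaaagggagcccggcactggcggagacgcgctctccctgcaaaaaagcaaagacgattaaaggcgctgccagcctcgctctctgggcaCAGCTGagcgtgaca

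The En1 window held 23 CpG dinucleotides and the Shox2 window 11, against 8 for Tcf21, 2 for Upk3b and a median of 7 over 32851 promoters of the same length. The CpG count of En1 was above that of 78.5% of those promoters, and that of Upk3b was above that of 14.1%. Upk3b had 1 match to GGAATG, starting 241 bases before the start, a word that 14.7% of the promoters held. Shox2 had 1 match to TATAAA, 203 bases before the start, where 13.6% of promoters held one. En1 had 2 CACGTG words, 175 and 158 bases before the start, and 1 CAGCTG word 35 bases after it, where 7.15% and 16.3% of promoters held them. The Tcf21 window had none of these words.

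Library totals ran from 12970509 to 20170746 estimated counts, so 3 counts correspond to 0.149 to 0.231 CPM, counts divided by the library total times 1e+06. Inhbe itself was at 0 counts in all WT chow libraries of both depots, so fat transcript cannot check the KO labels. In mInhbe libraries it reached 0.240 to 15.8 CPM in epididymal and 2.42 to 46.0 CPM in subcutaneous fat, against 0 counts in every GFP library. The fat cell gene Adipoq was at 654 CPM or more in every library. Some libraries stood apart. In GFP epididymal fat Ucp1, a gene of brown fat, reached 787 CPM in library 8. Crisp1, made in the epididymis, was at 0.884 CPM in library 7 of that group and at 2986 to 7619 CPM in the other 9. WT HFD epididymal libraries 4 and 5 held 814 and 3261 CPM of the liver gene Alb. WT HFD subcutaneous library 6 held 160 CPM of Alb and 13.7 CPM of the progenitor gene Pdgfra, where the other 6 libraries of its group held 45.0 to 173 CPM of Pdgfra. Most epididymal libraries also carried epididymis transcript, and subcutaneous libraries carried lymph node transcript. Nothing in the labels says whether libraries of different depots came from the same mice.

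The first question was where each member is expressed. Per kilobase of merged GENCODE exon, the members of WT chow epididymal fat ranked Krt19 (31.9 CPM per kb), Upk3b (24.5), Msln (9.49), Tcf21 (4.04), Wt1 (3.79) and Irx3 (1.09). On the same scale WT chow subcutaneous fat ranked Tbx15 (7.64 CPM per kb), Shox2 (6.83), Krt19 (2.61), En1 (1.21) and Irx3 (1.14). Every other member was at or below 0.157 CPM per kb in these groups. All further levels are CPM, and those of the 2 experiments come from separate tables, so they are set side by side but tested only within an experiment. Fewer cells of a type and less RNA per cell cannot be told apart in these bulk libraries.

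Upk3b was almost confined to epididymal fat. Its CPM in epididymal fat was 45.97 ± 17.1 in mInhbe mice (SD, n = 10), 51.7 ± 20.4 in GFP mice (n = 10), 24.0 ± 11.0 in KO HFD mice (n = 8), 15.7 ± 12.8 in WT HFD mice (n = 8), 76.4 ± 31.6 in KO chow mice (n = 7) and 86.4 ± 39.6 in WT chow mice (n = 8). Subcutaneous fat held 9 Upk3b counts in all, with 0 counts in every mInhbe, GFP and WT chow library. Against a floor of 3 counts over the group, Upk3b was at least 2607-fold higher in epididymal than in subcutaneous fat of mInhbe mice, at least 2996-fold in GFP mice and at least 3485-fold in WT chow mice. Floors and intervals here cover counting error only.

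Wt1 and Tcf21 showed the same split between depots. Wt1 averaged 14.3 ± 3.77 CPM in mInhbe, 16.1 ± 5.08 in GFP, 8.72 ± 3.65 in KO HFD, 9.99 ± 2.74 in WT HFD, 17.6 ± 2.90 in KO chow and 23.5 ± 7.38 in WT chow epididymal fat. Subcutaneous groups held between 1 and 8 Wt1 counts each, and all 8 counts of the GFP group were in library 6, at 0.430 CPM. Tcf21 averaged 13.2 ± 2.59 CPM in mInhbe, 12.3 ± 2.32 in GFP, 5.70 ± 1.66 in KO HFD, 5.92 ± 1.85 in WT HFD, 9.76 ± 2.43 in KO chow and 9.49 ± 2.01 in WT chow epididymal fat, with at most 5 counts in any subcutaneous group. Tcf21 overlaps the annotated gene Gm10824, and the sources used here do not say whether counting used the strand.

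Msln was low but not absent in subcutaneous fat. In epididymal fat it averaged 20.3 ± 6.46 CPM in mInhbe, 23.2 ± 8.62 in GFP, 9.50 ± 4.24 in KO HFD, 7.57 ± 3.75 in WT HFD, 25.4 ± 11.4 in KO chow and 29.1 ± 14.5 in WT chow mice. Subcutaneous group means ran from 0.0809 to 0.247 CPM, near the level of 3 counts. Summed over a group, Msln was 50.7-fold (exact interval 33.6 to 80.3) to 302-fold (159 to 662) higher in epididymal fat.

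Krt19 was found in both depots and spread widely within groups. Its epididymal CPM was 142 ± 58.8 in mInhbe, 116 ± 44.3 in GFP, 40.04 ± 35.5 in KO HFD, 19.99 ± 23.2 in WT HFD, 75.03 ± 41.8 in KO chow and 59.1 ± 39.6 in WT chow mice. Its subcutaneous CPM was 12.3 ± 13.8 in mInhbe, 3.65 ± 3.54 in GFP, 0.690 ± 0.479 in KO HFD, 1.06 ± 1.17 in WT HFD, 2.13 ± 3.06 in KO chow and 4.84 ± 4.56 in WT chow mice. In KO HFD and WT HFD mice the 2 depots overlapped, and in the other conditions they did not.

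Tbx15 and Shox2 were the subcutaneous counterparts. Tbx15 averaged 0.186 ± 0.0666 CPM in mInhbe, 1.39 ± 3.65 in GFP, 0.509 ± 0.805 in KO HFD, 0.352 ± 0.297 in WT HFD, 0.130 ± 0.117 in KO chow and 0.196 ± 0.0661 in WT chow epididymal fat. In subcutaneous fat it averaged 20.9 ± 2.80 in mInhbe, 20.4 ± 3.28 in GFP, 20.1 ± 2.23 in KO HFD, 18.9 ± 7.56 in WT HFD, 27.95 ± 6.51 in KO chow and 28.6 ± 3.61 in WT chow mice. The GFP epididymal mean rests on library 8, at 11.8 CPM, which also held the Ucp1 transcript. The other 9 GFP epididymal libraries held 0.0569 to 0.969 CPM.

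Shox2 averaged 0.363 to 0.784 CPM over the 6 epididymal groups. In subcutaneous fat it averaged 18.2 ± 3.14 CPM in mInhbe, 21.5 ± 3.02 in GFP, 40.7 ± 6.53 in KO HFD, 32.5 ± 12.5 in WT HFD, 24.5 ± 3.20 in KO chow and 22.6 ± 5.10 in WT chow mice. Tbx15 overlaps Gm46817 and Gm52611, and Shox2 overlaps Rsrc1, so their counts may hold reads of those genes. En1 was rarer, with epididymal group means of 0.108 to 0.219 CPM and subcutaneous means of 1.57 to 3.18 CPM.

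Irx3 was expressed in both depots, and its epididymal mean was the lower one in every condition, by little outside WT HFD. It averaged 3.30 ± 1.35 CPM in mInhbe, 3.06 ± 0.871 in GFP, 3.55 ± 0.679 in KO HFD, 2.84 ± 0.698 in WT HFD, 2.71 ± 0.333 in KO chow and 3.00 ± 0.283 in WT chow epididymal fat. The subcutaneous means were 3.72 ± 0.798 in mInhbe, 3.67 ± 0.815 in GFP, 3.94 ± 1.03 in KO HFD, 6.49 ± 3.61 in WT HFD, 3.39 ± 0.747 in KO chow and 3.15 ± 0.996 in WT chow mice. The depots overlapped in every condition but WT HFD.

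**Figure D1:**
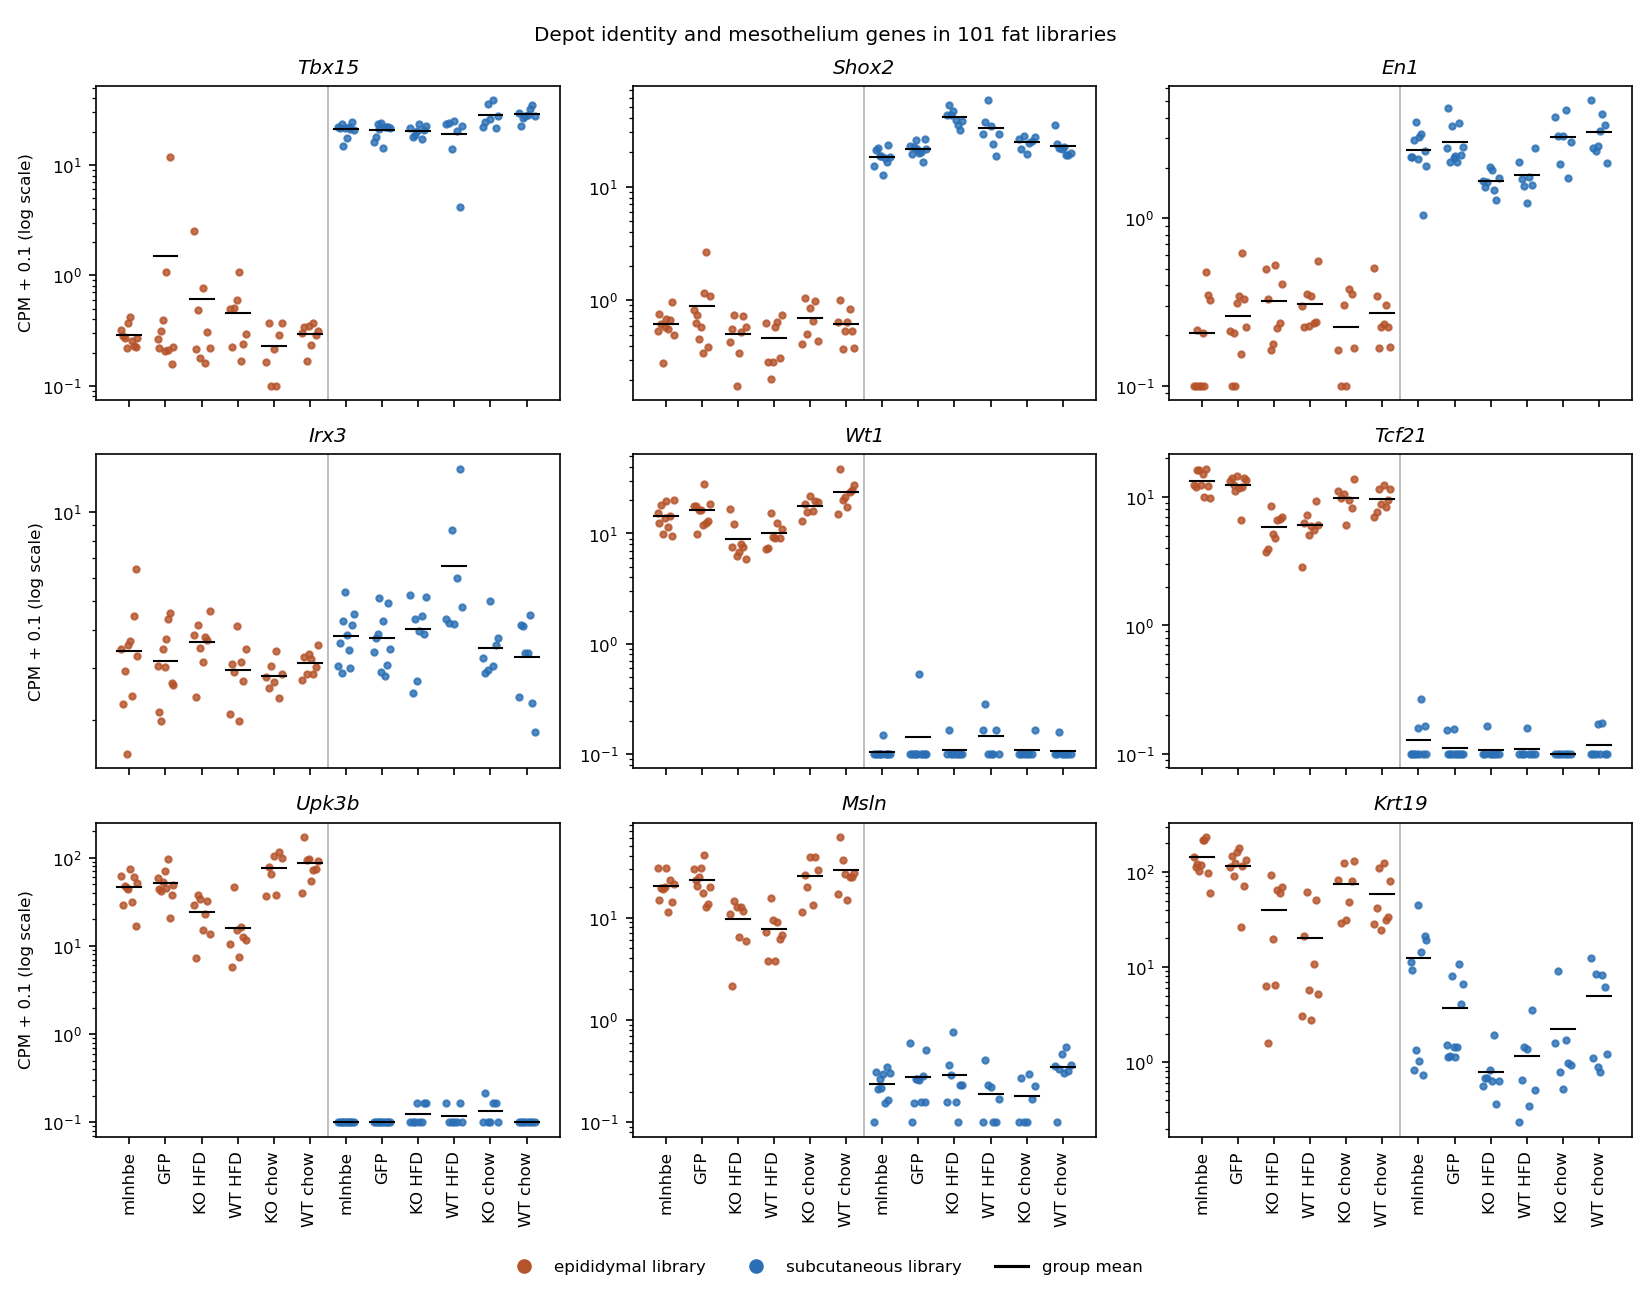
Level of each member in every library, as CPM + 0.1 on a log axis, for epididymal (left of the line) and subcutaneous groups (right); points are libraries and bars are group means. Wt1, Tcf21, Upk3b and Msln lie high in epididymal and near the floor in subcutaneous libraries, Tbx15, Shox2 and En1 the other way round, and Irx3 lies at about the same height in both.

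The depots were compared within each condition with edgeR's quasi-likelihood test on the estimated counts, and genes with a Benjamini-Hochberg adjusted p under 0.05, over all genes tested, count as called. Epididymal against subcutaneous fat called 8 members in mInhbe mice (64.7% of all genes tested were called), 8 in GFP mice (64.5%), 8 in KO HFD mice (41.8%), 9 in WT HFD mice (40.8%), 8 in KO chow mice (36% of genes) and 8 in WT chow mice (43.1%). Genes nearly confined to 1 depot enter the fit through that depot, so these counts only describe the members. Irx3 was the exception, with log2 fold changes of -0.33 to -0.03 and adjusted p of 0.125 to 0.912 outside WT HFD. In GFP mice it was called lower in epididymal fat with limma-voom (-0.55, adjusted p = 0.00163) and without GFP epididymal libraries 7 and 8 and GFP subcutaneous library 2 (-0.50, adjusted p = 0.029). In WT HFD mice it was lower in epididymal fat, with a log2 difference of -1.31 ± 0.20 (SE, adjusted p = 7.49e-07). With limma-voom the Krt19 difference in WT HFD mice was 4.45 (adjusted p = 0.0709).

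For Shox2, En1 and Krt19 the depot difference is given as a log2 value. Epididymal En1 held only 13 to 28 counts a group, so its differences are imprecise. Shox2 was lower in epididymal than in subcutaneous fat, with log2 differences of -5.11 ± 0.26 in mInhbe mice, -4.84 ± 0.25 in GFP mice, -6.70 ± 0.28 in KO HFD mice, -6.56 ± 0.28 in WT HFD mice, -5.32 ± 0.28 in KO chow mice and -5.40 ± 0.26 in WT chow mice. The log2 differences of En1 were -2.87 ± 0.36 in KO HFD and -3.06 ± 0.37 in WT HFD mice, and -4.50 ± 0.42 in KO chow and -4.12 ± 0.38 in WT chow mice. Krt19 was higher in epididymal fat by 3.56 ± 0.57 in mInhbe and 4.92 ± 0.62 in GFP mice. The vector's effect on Krt19 was not called as differing between depots (-1.36 ± 0.76, edgeR adjusted p = 0.217). In the other experiment the Krt19 differences were 5.72 ± 0.83 in KO HFD, 4.09 ± 0.82 in WT HFD, 5.05 ± 0.81 in KO chow and 3.57 ± 0.70 in WT chow mice.

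Of the diet, KO and vector contrasts within a depot, those of HFD called members most often. HFD in WT mice also called the most genes of these contrasts, 8140 of 15042 in epididymal and 6276 of 14220 in subcutaneous fat. In epididymal fat HFD lowered Upk3b, Msln, Wt1 and Tcf21 in both genotypes. Upk3b ran from 7.17 to 37.8 CPM (median 26.2) in KO HFD mice, against 36.2 to 116 CPM (median 78.2) in KO chow mice. In WT HFD mice it ran from 5.72 to 46.2 CPM (median 12.1), against 39.8 to 171 CPM (median 82.1) in WT chow mice. All 8 HFD libraries of each genotype lay below the chow mean of that genotype, and 7 of 8 lay below its lowest chow library. WT HFD library 3, at 46.2 CPM, was the only WT HFD library inside the WT chow range.

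By edgeR's quasi-likelihood test Upk3b fell on HFD, with log2 changes of -1.46 ± 0.39 in KO mice (SE, adjusted p = 0.00389) and -2.39 ± 0.39 in WT mice (adjusted p = 8.17e-06), or 2.76-fold and 5.25-fold. Msln ran from 2.06 to 14.3 CPM (median 11.1) in KO HFD mice, against 11.3 to 39.3 CPM (median 26.0) in KO chow mice, and fell by 1.22 ± 0.36 (adjusted p = 0.00909). In WT HFD mice Msln ran from 3.66 to 15.3 CPM (median 6.83), against 14.7 to 61.1 CPM (median 25.7) in WT chow mice, and fell by 1.87 ± 0.36 (adjusted p = 7.24e-05). For Msln 4 of 8 KO HFD and 7 of 8 WT HFD libraries lay below the lowest chow library of their genotype, and library 3 was again the highest WT HFD library.

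The 2 visceral transcription factors had smaller log2 changes. Wt1 fell by 0.80 ± 0.21 in KO mice (edgeR adjusted p = 0.0033), with 5.72 to 16.4 CPM (median 7.44) on HFD against 13.0 to 21.6 CPM (median 18.4) on chow. It fell by 1.15 ± 0.20 in WT mice (adjusted p = 2.08e-05), with 7.06 to 15.3 CPM (median 9.17) on HFD against 14.9 to 38.6 CPM (median 22.5) on chow. Tcf21 fell by 0.54 ± 0.18 in KO mice (adjusted p = 0.0183), with 3.62 to 8.34 CPM (median 5.75) on HFD against 5.93 to 13.7 CPM (median 9.77) on chow. In WT mice Tcf21 fell by 0.58 ± 0.17 (adjusted p = 0.00615), with 2.73 to 9.25 CPM (median 5.87) on HFD against 6.88 to 12.3 CPM (median 9.08) on chow. Both genes overlapped between diets in both genotypes.

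Of the 6 members tested in epididymal fat, 4 thus fell in KO mice, where 13.9% of 15042 genes tested fell, and 1 (Irx3) rose, where 24.7% rose. In WT mice 4 fell, where 25.2% of genes fell, and 0 rose, where 28.9% rose. The median log2 change over the 6 was -0.75 in KO and -1.30 in WT mice, beside 0.00 and -0.02 over all genes tested. The 3 subcutaneous factors did not pass the filter on low counts in this depot. With no filter Tbx15 was called in KO mice (2.04, adjusted p = 0.0335), but not in WT mice (0.90, adjusted p = 0.283). Of the 63 Tbx15 counts in KO HFD fat 37 were in library 1. The medians were 2.5 counts a library in KO HFD and 2 in KO chow mice.

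Krt19 did not pass the test in either genotype, with log2 changes of -0.70 ± 0.67 in KO mice (edgeR adjusted p = 0.421) and -1.45 ± 0.67 in WT mice (adjusted p = 0.0676). In each epididymal group of this experiment, libraries with over 100 CPM of Crisp1 held more Krt19 than the rest. Above that cut Krt19 did not rank with Crisp1 in WT HFD mice. Library 2 held the most Crisp1 of the 3, 1986 CPM, and the least Krt19, 21.0 CPM. Of the WT libraries, 3 HFD libraries with over 100 CPM of Crisp1 held 21.0 to 61.4 CPM of Krt19, against 80.6 to 123 CPM in 3 such chow libraries. The 5 WT HFD libraries with less Crisp1 held 2.68 to 10.6 CPM of Krt19, against 24.7 to 41.7 CPM in 5 WT chow libraries. In KO mice the libraries with over 100 CPM of Crisp1 overlapped, with 59.6 to 92.9 CPM of Krt19 in 4 HFD libraries against 47.8 to 132 CPM in 5 chow libraries. The 4 KO HFD libraries with less Crisp1 held 1.49 to 19.8 CPM of Krt19, against 28.9 and 30.8 CPM in 2 KO chow libraries. This split was made after the values were seen and was not tested. With an epididymis score as a covariate the WT change of Krt19 was -1.37 (adjusted p = 0.0735). DESeq2 (adjusted p = 0.0336) and limma-voom (adjusted p = 0.0126) called it.

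**Figure D2:**
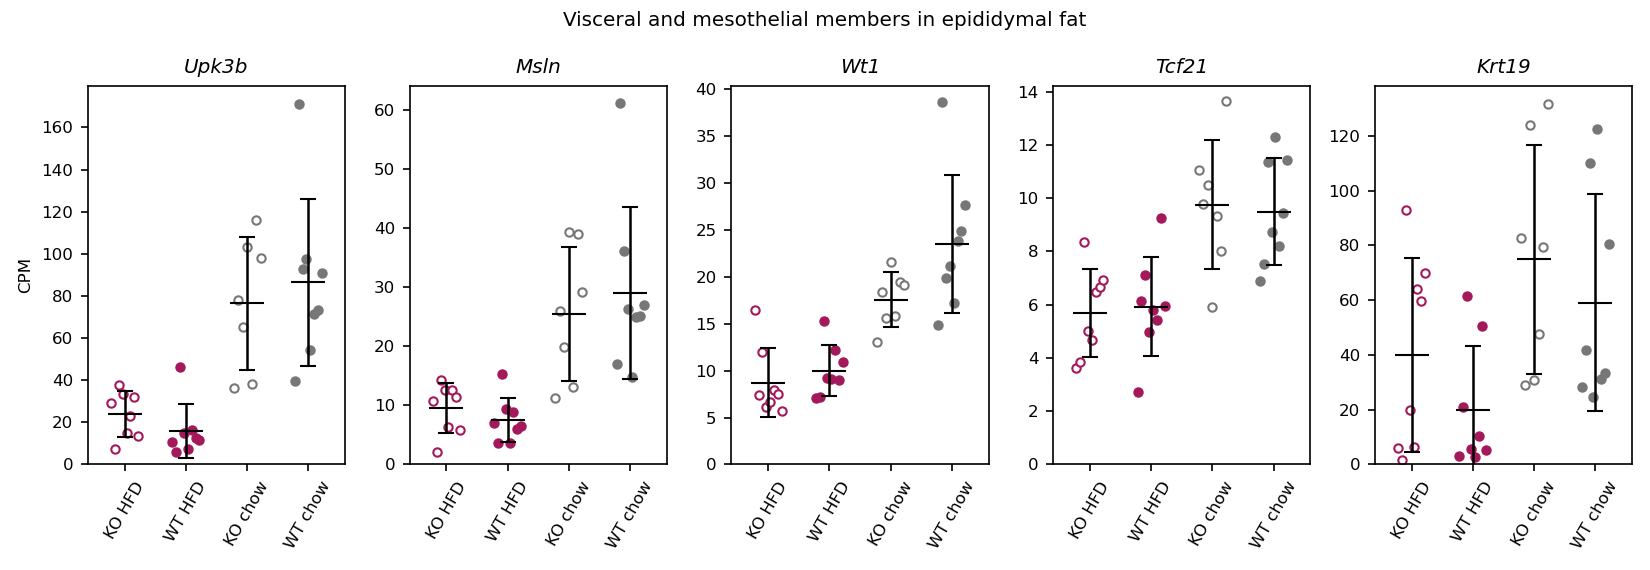
CPM of 5 members in epididymal fat of the loss-of-function experiment; open points are KO and filled points WT libraries, and bars give the mean ± SD (the lower bar of Krt19 in WT HFD is cut at 0). Upk3b, Msln, Wt1 and Tcf21 lie lower in both HFD groups than in both chow groups, and Krt19 spreads widely in all 4.

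The sum of the 14 listed epididymis genes had medians of 539 CPM in KO HFD, 23.97 CPM in WT HFD, 1570 CPM in KO chow and 18.5 CPM in WT chow epididymal fat. It ran from 0.401 to 2083 CPM in KO HFD, 0.610 to 2370 CPM in WT HFD, 7.18 to 5775 CPM in KO chow and 0.867 to 4740 CPM in WT chow fat. Of 5 such genes tested, HFD called 1 lower in KO mice and 0 in WT mice. With the epididymis score in the model the Upk3b changes were -1.49 in KO mice (adjusted p = 0.00573) and -2.39 in WT mice (adjusted p = 1.14e-05). Of 8 fat cell genes 0 rose and 7 fell in WT mice, where 28.9% of all genes rose and 25.2% fell. In KO mice 1 of 8 rose and 0 fell, where 24.7% of all genes rose and 13.9% fell. The same shares apply to the other gene lists for HFD in epididymal fat. Of 10 progenitor and fibroblast genes 4 rose and 1 fell in KO mice, and 5 rose and 1 fell in WT mice. Skeletal muscle genes rose on HFD, 8 of 10 in KO and 7 of 10 in WT mice, with median summed levels of 130 CPM in KO HFD, 98.8 CPM in WT HFD, 40.6 CPM in KO chow and 46.4 CPM in WT chow fat. Of 5 brown fat genes 4 rose in each genotype. Without WT HFD libraries 4 and 5, which held Alb, the WT change of Upk3b was -2.26 (adjusted p = 0.000114). The part of these shifts in the falls of the members was not tested.

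Other mesothelium genes moved the same way. Of 16 listed, 14 were tested, and on HFD 10 fell and 0 rose in KO mice, and again 10 fell and 0 rose in WT mice, with median log2 changes of -1.15 and -1.65. Upk1b, a uroplakin partner, fell by 1.64 ± 0.31 in KO and by 2.07 ± 0.31 in WT mice (SE). Lrrn4, a leucine-rich repeat membrane protein, fell by 1.44 ± 0.34 in KO and by 2.30 ± 0.34 in WT mice, and it fell in subcutaneous fat too, as given at the end. Rspo1, a secreted Wnt agonist, fell by 1.08 ± 0.24 in KO and by 1.70 ± 0.24 in WT mice. Gpm6a, a membrane glycoprotein, fell by 2.11 ± 0.30 in WT mice.

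Of 12 other visceral depot genes 10 were tested, and on HFD 6 fell and 0 rose in KO mice, and 9 fell and 0 rose in WT mice. Thbd, the endothelial and mesothelial thrombin receptor thrombomodulin, fell by 1.52 ± 0.15 in KO and by 2.28 ± 0.16 in WT mice. The zinc-finger factor Bnc2 fell by 1.00 ± 0.14 in KO and by 1.49 ± 0.14 in WT mice, and Gata6, a GATA factor, by 0.77 ± 0.17 in KO and by 1.14 ± 0.17 in WT mice. Hoxa5, a homeobox factor, fell by 0.65 ± 0.16 in KO and by 1.01 ± 0.15 in WT mice. The medians over the 10 were -0.82 in KO and -1.02 in WT mice. In subcutaneous fat the summed level of the 12 genes was lower on HFD too. Its medians were 244 CPM in KO HFD, 391 CPM in KO chow, 201 CPM in WT HFD and 311 CPM in WT chow mice.

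KO left these 5 members without a call by edgeR in epididymal fat on either diet. On chow 0 of 6 members were called by edgeR, DESeq2 or limma-voom, 0 had an unadjusted p under 0.05, and the log2 changes of KO over WT ran from -0.39 to 0.39 (0.658% of all genes were called). On HFD Upk3b was 0.78 ± 0.38 higher in KO than in WT mice on the log2 scale (edgeR adjusted p = 0.113), with medians of 26.2 CPM in KO and 12.1 CPM in WT mice, while limma-voom (1.03, adjusted p = 0.02) and edgeR with the replicate number as a block (0.90, adjusted p = 0.0465) called it. The change of Msln was 0.49 ± 0.36 (adjusted p = 0.308) and that of Wt1 -0.04 ± 0.20 (adjusted p = 0.907). The effect of KO on Upk3b differed between HFD and chow by 0.93 ± 0.54 (adjusted p = 0.28), so a difference between the falls in KO and WT mice did not pass the test.

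Irx3 was the only member with a KO call, of 6 tested, in epididymal fat on HFD, where 17% of all genes rose and 20.2% fell. It held 2.29 to 4.56 CPM (median 3.65) in KO HFD mice, against 1.89 to 4.03 CPM (median 2.89) in WT HFD mice, and 1 of 8 KO libraries lay below the WT mean. The change was 0.49 ± 0.13 on the log2 scale (SE, edgeR adjusted p = 0.00422). On chow it held 2.28 to 3.30 CPM in KO mice, against 2.63 to 3.46 CPM in WT mice. The KO effect on HFD was larger than that on chow by 0.61 ± 0.19 (adjusted p = 0.0285), where 16.5% of genes were called, and HFD raised Irx3 by 0.62 ± 0.14 in KO mice (adjusted p = 0.000853). With no filter on low counts the difference between diets was 0.57 with an adjusted p of 0.0595. In the same comparison all 8 fat cell genes were higher in KO HFD mice, with a median change of 1.05; their part was not tested.

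Between mInhbe and GFP epididymal fat 0 of 6 members were called by edgeR, DESeq2 or limma-voom, and 0 had an unadjusted p under 0.05. There 1.16% of all genes were called. The log2 changes ran from -0.21 ± 0.21 for Msln to 0.34 ± 0.28 for Krt19.

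**Figure D3:**
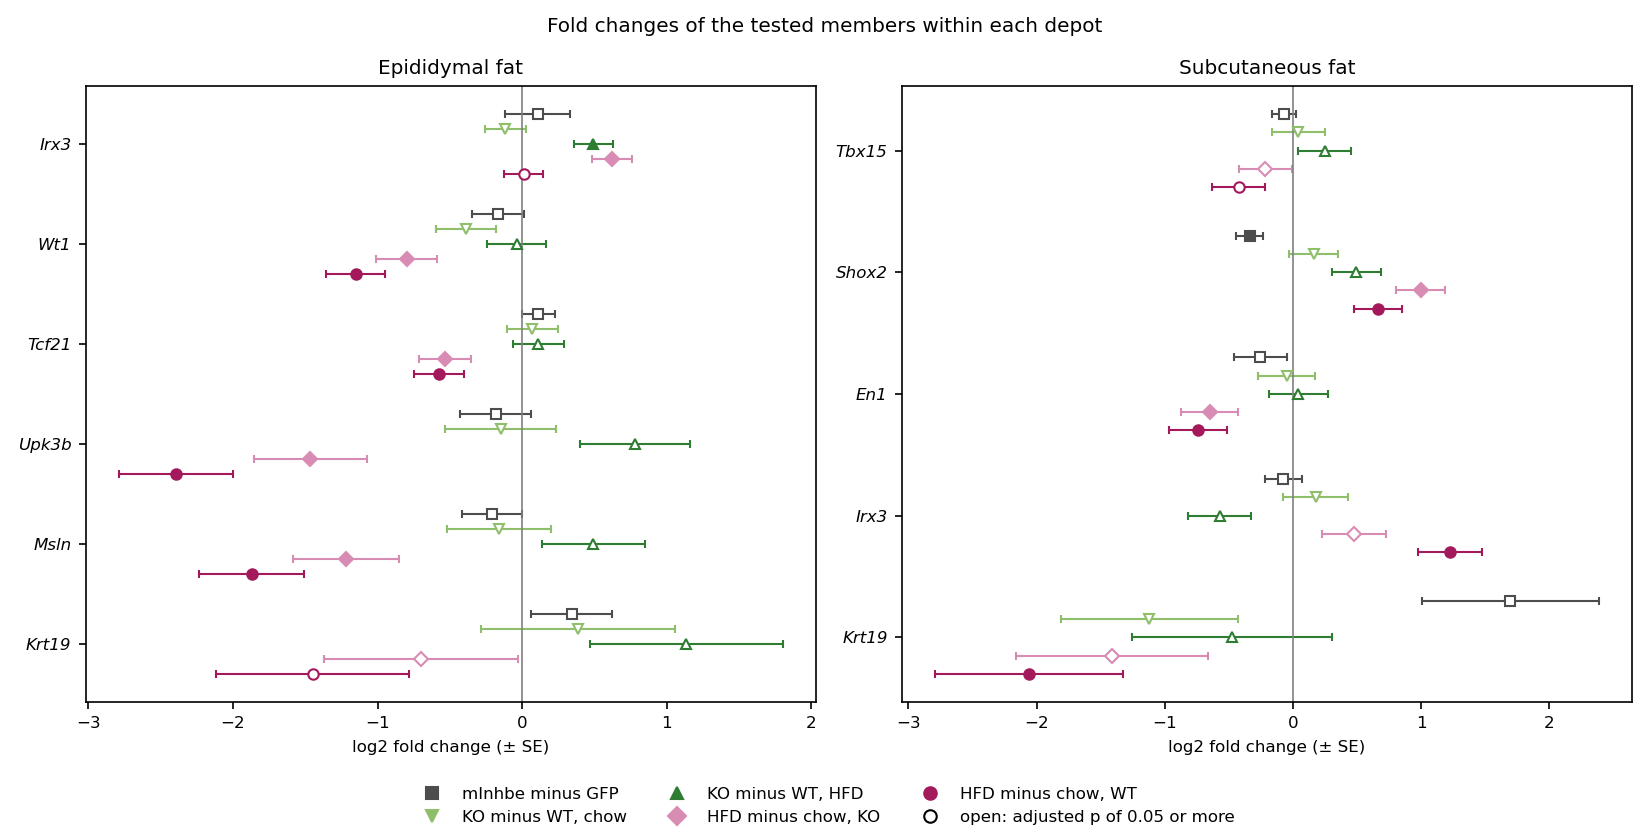
Log2 fold change ± SE of each tested member within epididymal fat (left) and subcutaneous fat (right) for 5 contrasts; filled symbols have an adjusted p under 0.05 and open ones do not. In epididymal fat the filled HFD symbols of Wt1, Tcf21, Upk3b and Msln lie left of 0, and in subcutaneous fat those of Shox2 lie right and those of En1 left of 0.

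In subcutaneous fat HFD moved the developmental members in different directions. Shox2 rose in both genotypes, En1 fell in both, Irx3 rose in WT mice, and Tbx15 was not called. Shox2 held 31.6 to 52.1 CPM (median 40.3) in KO HFD mice, against 19.1 to 27.9 CPM (median 25.2) in KO chow mice, with no overlap. It rose by 0.99 ± 0.19 on the log2 scale in KO mice (SE, edgeR adjusted p = 0.000315). In WT HFD mice it held 18.3 to 57.3 CPM (median 29.1), against 18.9 to 34.6 CPM (median 21.7) in WT chow mice, and rose by 0.66 ± 0.19 (adjusted p = 0.00551), with overlap between the groups.

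En1 held 1.18 to 1.93 CPM (median 1.56) in KO HFD mice, against 1.63 to 4.33 CPM (median 2.998) in KO chow mice, and fell by 0.65 ± 0.22 (edgeR adjusted p = 0.037). In WT HFD mice En1 held 1.14 to 2.54 CPM (median 1.61), against 2.05 to 4.97 CPM (median 2.93) in WT chow mice, and fell by 0.74 ± 0.23 (adjusted p = 0.00863). Leaving out the 4 libraries with the least lymph node transcript (WT HFD 1, 2 and 4, at 9.62 to 18.4 CPM summed over the markers, and WT chow 1, at 16.7 CPM), its WT change was -0.49 (adjusted p = 0.103).

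Irx3 held 2.36 to 5.16 CPM (median 4.06) in KO HFD mice, against 2.77 to 4.91 CPM (median 3.12) in KO chow mice, and was not called (log2 change 0.48 ± 0.25, edgeR adjusted p = 0.187). It was called with limma-voom (0.45, adjusted p = 0.0234) and without KO HFD library 2 and WT HFD library 6 (0.54, adjusted p = 0.0488). In WT HFD mice it held 4.09 to 13.8 CPM (median 4.67), against 1.72 to 4.40 CPM (median 3.25) in WT chow mice, and rose by 1.22 ± 0.25 (adjusted p = 0.000213). The 2 highest WT HFD values, 8.57 CPM in library 3 and 13.8 CPM in library 6, came from the libraries with the lowest Tbx15 of the group, 13.8 and 4.08 CPM. Without these 2 libraries Irx3 still rose, by 0.73 (adjusted p = 0.00373). The other 5 WT HFD libraries held 20.0 to 25.1 CPM of Tbx15.

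Tbx15 had log2 changes of -0.22 ± 0.21 in KO mice (edgeR adjusted p = 0.49) and -0.42 ± 0.21 in WT mice (adjusted p = 0.0972), or -0.13 in WT mice without libraries 3 and 6 (adjusted p = 0.37). With a lymph node score in the model it fell in WT mice, by 0.70 (adjusted p = 0.00728). Tbx15 was called in 2 of 10 settings, the other being the fit without the 4 libraries with the least lymph node transcript. Krt19 fell by 2.06 ± 0.73 in WT mice (adjusted p = 0.024), with 0.133 to 3.48 CPM on HFD against 0.690 to 12.5 CPM on chow, and its change in KO mice was -1.41 ± 0.75 (adjusted p = 0.188). The WT change of Krt19 was -1.21 (adjusted p = 0.25) when the same 4 libraries were left out, and -1.68 (adjusted p = 0.0724) with limma-voom. Of 5 skin and gland genes 1 fell in KO and 2 fell in WT mice, and the part of that epithelium in the Krt19 change was not tested. Lymph node sums had medians of 428 CPM in KO HFD, 444 CPM in WT HFD, 605 CPM in KO chow and 898 CPM in WT chow fat, and their part in these changes was tested no further than through the score and by leaving out the 4 libraries. Of 5 members tested, 1 rose and 1 fell in KO mice, where 11.7% of all genes rose and 9.05% fell, and 2 rose and 2 fell in WT mice, where 22.6% rose and 21.5% fell. The members' shares in KO mice rest on 1 gene each.

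KO against WT in subcutaneous fat called 0 of 5 members on chow by edgeR, DESeq2 or limma-voom, with 0 at an unadjusted p under 0.05, where 0.253% of all genes were called. On HFD it called 0 of 5 by edgeR, where 18.9% of genes were called, but 2 had an unadjusted p under 0.05 and DESeq2 and limma-voom called 1 each. That gene was Shox2, at a log2 change of 0.49 ± 0.19 (edgeR adjusted p = 0.064), with an adjusted p of 0.0474 by DESeq2. Its change was 0.31 (edgeR adjusted p = 0.264) with KO HFD library 2 and WT HFD library 6 left out. Over 10 settings, the main fit included, Shox2 was called in 6, with log2 changes of 0.31 to 0.67. Among the 6 were edgeR with the replicate block and with the lymph node score. The other was Irx3, at -0.57 ± 0.24 (edgeR adjusted p = 0.102), which was -0.06 without WT HFD libraries 3 and 6 and -0.76 (adjusted p = 0.0183) with the lymph node score in the model. The effect of KO did not differ by diet for any of 5 members at an adjusted p under 0.05 (2.14% of genes were called, and 1 member, Irx3, had an unadjusted p under 0.05; DESeq2 and limma-voom called 0).

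**Figure D4:**
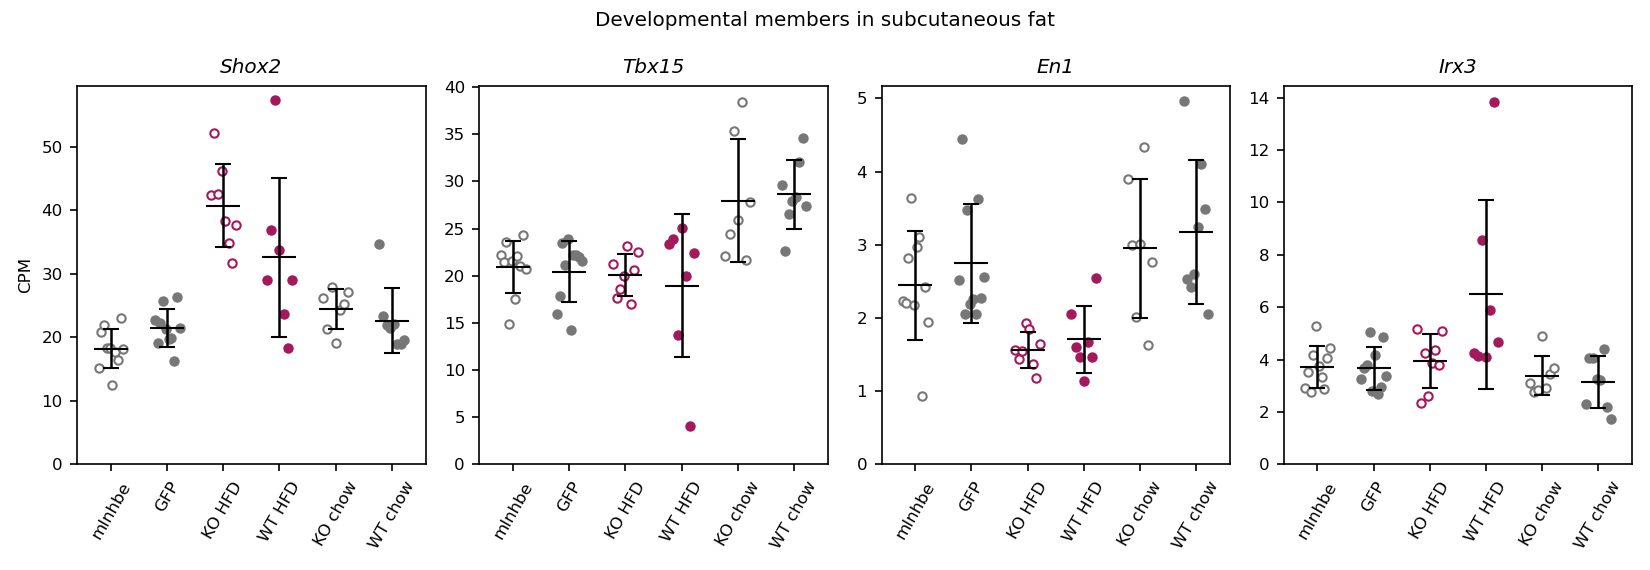
CPM of 4 developmental members in the 6 subcutaneous groups; open points are mInhbe or KO libraries, filled points GFP or WT libraries, HFD groups are coloured, and bars give the mean ± SD. Shox2 lies higher and En1 lower in both HFD groups, and 2 WT HFD libraries stand above the rest for Irx3.

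The mInhbe vector lowered Shox2 in subcutaneous fat and called no other member of 5, where 15.8% of all genes rose and 11.4% fell. Shox2 held 12.5 to 22.98 CPM (median 18.3) in mInhbe mice, against 16.3 to 26.4 CPM (median 21.3) in GFP mice, and fell by 0.34 ± 0.10 on the log2 scale (SE, edgeR adjusted p = 0.0206). Of 10 mInhbe libraries 8 lay below the GFP mean. Lymph node transcript moved with the vector: 3 of 12 lymph node genes rose and 0 fell, and their sum ran from 875 to 1746 CPM in mInhbe fat, against 691 to 1325 CPM in GFP fat. With the lymph node score in the model the Shox2 change was -0.24 (adjusted p = 0.266), and the genes called numbered 382 of 13990, against 3801 without the score.

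Krt19 had the largest change of the 5, 1.70 ± 0.69 on the log2 scale, and did not pass the test (edgeR adjusted p = 0.0717). Its values in mInhbe mice ran from 0.628 to 44.9 CPM (median 10.2), against 1.02 to 10.7 CPM (median 1.39) in GFP mice. DESeq2 called it (1.70, adjusted p = 0.0465). Other keratins are given for the extremes of Krt19, of which Krt14 and Krt5 belong to basal layers of skin and glands. The library with the most Krt19, mInhbe library 5, held 31.8 CPM of Krt8, 37.04 of Krt18, 7.23 of Krt14 and 8.81 of Krt5. The library with the least, mInhbe library 8, held 0.251 CPM of Krt8, 0.188 of Krt18 and 0 counts of Krt14 and Krt5. Upk3b was at 0 counts in all of these libraries. Of 5 skin and gland genes tested, 1 rose and 0 fell, and the part of such epithelium in the Krt19 values was not tested.

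The difference of an effect between depots was also tested. The HFD effect on Shox2 in KO mice was lower in epididymal than in subcutaneous fat, with a log2 difference of -1.38 ± 0.39 (edgeR adjusted p = 0.029, 3.96% of genes called). In WT mice the difference was -1.17 ± 0.39 (adjusted p = 0.0166, 33.3% of genes called). Neither passed with limma-voom (-0.94, adjusted p = 0.343, in KO and -1.19, adjusted p = 0.0807, in WT mice), and the KO call was also lost with the replicate block. Epididymal Shox2 held only 45 to 65 counts a group in this experiment and did not pass the filter there alone. The HFD effect on Irx3 in WT mice was lower in epididymal fat, at -1.27 ± 0.28 (adjusted p = 0.000338), and the KO effect on Irx3 on HFD was higher there by 1.07 ± 0.28 (adjusted p = 0.00814, 14.6% of genes called). Without WT HFD subcutaneous libraries 3 and 6 the KO value was 0.59 (adjusted p = 0.0767), and with limma-voom it was 0.51 (adjusted p = 0.0804). On chow no KO effect on a member differed between depots (0% of genes were called by edgeR, and 0 members had an unadjusted p under 0.05 or a call by DESeq2 or limma-voom). The vector's effect on Tbx15 differed by -2.78 ± 0.88 (adjusted p = 0.0325, 13.5% of genes called), but by -0.34 (adjusted p = 0.609) without GFP epididymal libraries 7 and 8 and GFP subcutaneous library 2. The calls for Wt1 (-3.02, HFD in WT mice) and Tbx15 (2.26, HFD in KO mice) rest on groups with few counts, such as 5 and 1 Wt1 counts in WT HFD and WT chow subcutaneous fat, and are not read further.

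Within groups, Upk3b, Msln and Wt1 varied together between epididymal libraries. With group means removed from log2(CPM + 1), Upk3b and Msln correlated at Pearson r = 0.95 over 31 libraries of the loss-of-function experiment (Spearman rho 0.93) and at 0.88 (rho 0.93) over 20 libraries of the over-expression experiment. Each had an adjusted permutation p of 6e-05 over 12 relations, from a raw p of 1e-05, the smallest that 100000 resamples can give. Upk3b and Wt1 correlated at 0.69 (rho 0.69, adjusted permutation p = 8e-05) and 0.72 (rho 0.71, adjusted permutation p = 0.00072). Msln and Wt1 correlated at 0.63 (rho 0.63, adjusted permutation p = 0.0003) and 0.72 (rho 0.68, adjusted permutation p = 0.001). Without the 2 libraries farthest from the median of the first gene these 6 values ran from 0.62 to 0.95.

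No relation of Krt19 with these 3 passed the test. Its r with Upk3b was 0.39 (rho 0.29, adjusted permutation p = 0.0556) in the loss-of-function and -0.07 (rho 0.14, adjusted permutation p = 0.826) in the over-expression experiment, and the first was 0.11 without 2 libraries. With Msln it was 0.34 (rho 0.23, adjusted permutation p = 0.094) and -0.16 (rho 0.09, adjusted permutation p = 0.608), and with Wt1 0.02 (rho -0.02, adjusted permutation p = 0.916) and -0.29 (rho 0.02, adjusted permutation p = 0.29).

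**Figure D5:**
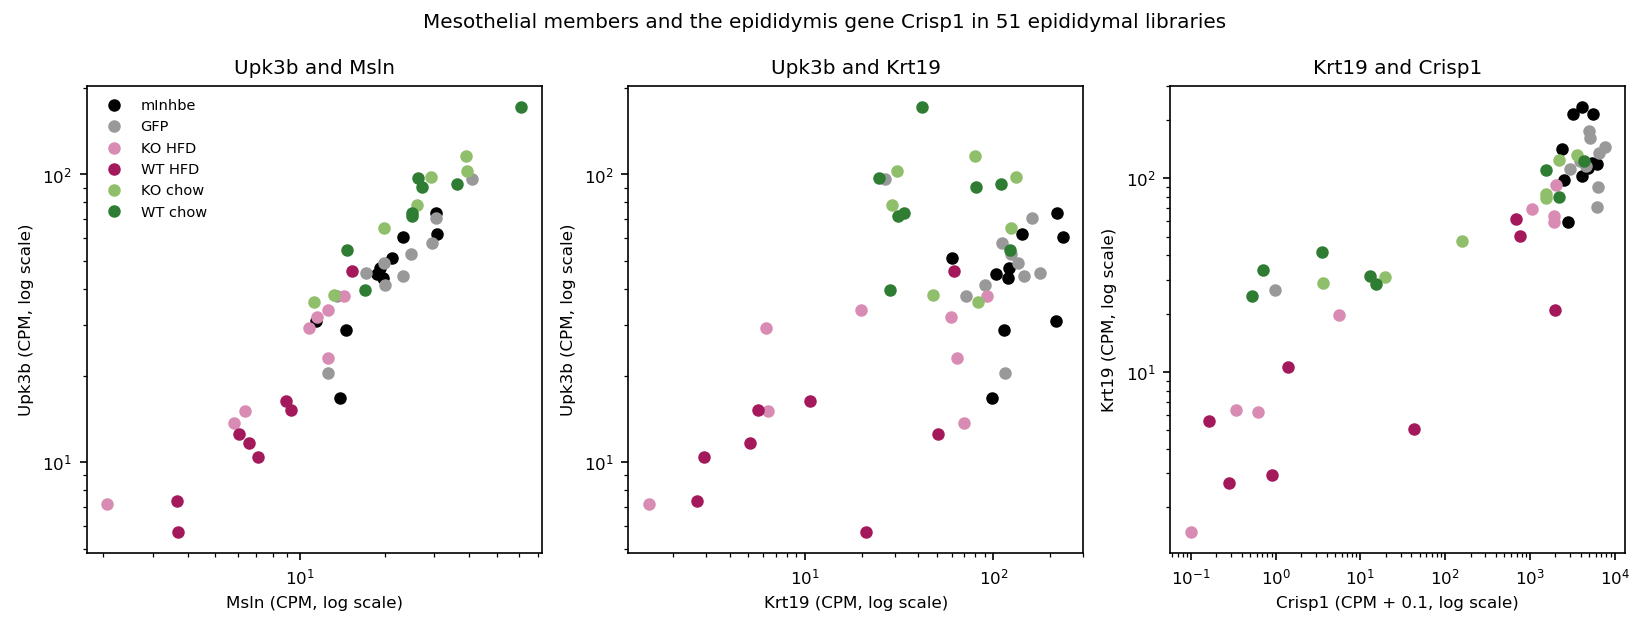
Upk3b against Msln, Upk3b against Krt19, and Krt19 against the epididymis gene Crisp1 (+ 0.1) in 51 epididymal libraries, in CPM on log axes, coloured by group. Upk3b and Msln lie along 1 line through all groups, while Krt19 spreads from 1.49 to 233 CPM with no such line against Upk3b.

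The genes whose levels most resembled each member's were taken by Pearson r over the loss-of-function libraries, with group means removed, in the depot where the member is higher. For Upk3b they were Msln (r = 0.95), Tmem151a (0.95) and Nkain4 (0.94), with 0.88, 0.85 and 0.82 in the over-expression experiment. For Msln they were Upk3b (0.95), Slpi (0.94) and Tmem151a (0.92), with 0.88, 0.76 and 0.82. For Wt1 they were Bnc1 (0.81), Crb2 (0.80) and C1ra (0.80), with 0.75, 0.73 and 0.69. For Tcf21 they were Ism1 (0.85), Wnt4 (0.85) and Usp54 (0.84), with 0.71, 0.78 and 0.43. For Krt19 they were Col4a6 (0.96), Eva1c (0.94) and Tfcp2l1 (0.93), with 0.53, 0.83 and 0.30.

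In subcutaneous fat the 3 closest to Shox2 were Bckdhb (r = 0.81), Hoxc8 (0.81) and Pole3 (0.81), with 0.58, 0.79 and 0.38 in the over-expression experiment. Tbx15 was closest to Adam9 (0.96), Csgalnact2 (0.96) and Fam102b (0.96), with 0.54, 0.55 and 0.52, and WT HFD library 6 lies far from the rest in this depot. Irx3 was closest to Fiz1 (0.82), Ankrd54 (0.77) and Kcnh2 (0.76), with 0.30, 0.16 and 0.30. En1 was closest to Emx2os (0.69), Calr (0.62) and Rhou (0.61), with 0.24, -0.40 and -0.12, so for En1 2 of 3 changed sign between experiments. These are descriptions over 31 epididymal or 30 subcutaneous libraries that share depth and carried-over tissue, taken from 14102 and 13424 genes averaging 1 CPM or more.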

How the data were processed

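The authors deposited estimated counts, 1 table for each experiment, with no scaling for depth. Of the values 2.95 and 2.93% were not whole within 1e-06. The design assumed whole counts, so values were rounded. Per the labels' protocols, libraries were made from 500 ng RNA with 14 PCR cycles and sequenced in pairs with 76 cycles. The genome build was mm10, per the submitters' processing notes. The sources used here do not give the aligner, counter, strand setting or use of molecular identifiers. Symbols, positions and promoters were joined by Entrez ID from RefSeq on GRCm38.p6. Merged exon lengths were taken from GENCODE by gene name. CPM divides a count by the library total and multiplies it by 1e+06.

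Within an experiment each depot had its own model in edgeR 4.0.16 (R 4.3.3), and depot contrasts and interactions a joint one. Low genes were dropped with filterByExpr (groups given, minimum count 10, total 15). Libraries were scaled by TMM and tested with the robust quasi-likelihood F test, with Benjamini-Hochberg adjustment over all genes tested. SEs are the absolute log2 change over the square root of F. The common biological coefficient of variation was 0.319 in epididymal and 0.219 in subcutaneous fat of the over-expression experiment, and 0.341 and 0.266 in the loss-of-function experiment. RLE size factors, no filter, DESeq2 1.42.0, limma-voom (limma 3.58.1) with quality weights, a replicate block, tissue scores and fits without some libraries were alternatives. The fits were tested on simulated data. Python 3.11.15 and matplotlib 3.10.9 were used.

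The labels call the libraries biological replicates. No 2 libraries of a group were copies: an index of spread, 1 for counting noise, ran from 6.19 to 427 over 383 pairs. The series text counts 8 WT HFD mice where the labels list 7 subcutaneous libraries. The members, the lists of other genes and the tests were chosen with earlier results of these data known. All 9 members are named. Fold changes are given where called, or where a sentence compares a member across contrasts. Of other lists up to 4 called genes with the smallest p were named, and the 3 genes of highest r to a member. Levels in the 2 tables were set side by side but tested only within a table. Promoters were found for 5 members (Irx3 is the fifth). The motifs were chosen with the values known.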

Additional observations from a re-analysis of the deposited data

Results flagged for a closer look

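Libraries far from the rest of their group were sought by Dixon's gap ratio in 90 sets of a member in a group, and 19 passed. Chance flags about 1 in 20 where values are normally distributed. The ratio was taken on CPM, which need not be so distributed, so the 19 cannot be set against that rate. GFP epididymal library 8 was the highest of its group for Tbx15 (11.8 CPM), Shox2 (2.55 CPM) and En1 (0.521 CPM), and it is the library with Ucp1 transcript. GFP epididymal library 7 was the lowest for Tcf21 (6.52 CPM) and the highest for Wt1 (28.0 CPM), and it is the library with little Crisp1. WT chow epididymal library 2 was the highest for Upk3b (171 CPM) and Msln (61.1 CPM). WT HFD epididymal library 3 was the highest for Upk3b (46.2 CPM), and library 8 the highest for En1 (0.453 CPM). KO HFD epididymal library 1 was the highest for Tbx15 (2.44 CPM).

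In subcutaneous fat Krt19 was far above the rest in mInhbe library 5 (44.9 CPM), KO HFD library 6 (1.83 CPM), WT HFD library 6 (3.48 CPM) and KO chow library 2 (9.00 CPM). Msln stood out in KO HFD library 4 (0.667 CPM) and WT HFD library 2 (0.309 CPM), Wt1 in GFP library 6 (0.430 CPM), Irx3 in KO chow library 4 (4.91 CPM) and Shox2 in WT chow library 1 (34.6 CPM). The Msln and Wt1 values here are a few counts.

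Effects that differed between diets or depots, by the interaction test of edgeR, were those of KO on Irx3 between HFD and chow in epididymal fat (0.61 on the log2 scale) and between epididymal and subcutaneous fat on HFD (1.07). HFD differed between epididymal and subcutaneous fat for Shox2 (-1.38 in KO and -1.17 in WT mice), Irx3 (-1.27 in WT mice), Wt1 (-3.02 in WT mice) and Tbx15 (2.26 in KO mice), and the vector for Tbx15 (-2.78). Epididymal group means of Tbx15 were under 1.4 CPM and subcutaneous counts of Wt1 at most 8 a group, so their values are imprecise.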

How the results depend on the processing

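Of 532 recomputed values of single called members, 513 kept direction and side of the threshold and 19 kept direction but lost the call. Most of the 532 came from the contrasts between depots, where the differences were mostly too large to lose a call. The total therefore says little about how firm the diet, KO and vector calls were. The epididymal falls of Upk3b, Msln, Wt1 and Tcf21 on HFD held under every alternative run. The number of all genes called moved between settings. For KO on HFD in subcutaneous fat it was 2688 of 14220 in the main fit. It was 3056 with DESeq2, 5552 with limma-voom, 2322 with the replicate block and 4044 with the lymph node score. For the vector's effect between depots it was 2081 of 15416, 4707 with limma-voom and 4 with the replicate block. The count of members called moved as follows, and the cause was not tested. Vector, subcutaneous: 2 with DESeq2 and 0 with the lymph node score, against 1. KO on HFD, subcutaneous: 1 with DESeq2, limma-voom, the replicate block or without WT HFD libraries 3 and 6 (chosen after seeing the data), and 2 with the lymph node score or with WT HFD 1, 2 and 4 and WT chow 1 left out, against 0. KO on HFD, epididymal: 2 with limma-voom or the replicate block, against 1. HFD in KO, subcutaneous: 1 with the replicate block (En1 -0.56, adjusted p = 0.0725) and 3 with limma-voom or without KO HFD 2 and WT HFD 6, against 2. HFD in WT, subcutaneous: 3 with limma-voom or without WT HFD 1, 2 and 4 and WT chow 1, and 5 with the lymph node score, against 4. Without those 4 libraries En1 and Krt19 lost their calls and Tbx15 gained a call. HFD, epididymal: 6 in KO with no filter, against 5, and 5 in WT with DESeq2, limma-voom or the replicate block, against 4. Epididymal against subcutaneous: 9 in GFP mice with limma-voom or without GFP epididymal libraries 7 and 8 and subcutaneous library 2, against 8, and 8 in WT HFD mice with limma-voom, against 9. KO by diet, epididymal: 0 with no filter, against 1. For effects that differ between depots, the vector gave 0 with limma-voom, the replicate block or without GFP epididymal libraries 7 and 8 and subcutaneous library 2, against 1. KO on HFD gave 0 with limma-voom or without WT HFD libraries 3 and 6, against 1. HFD gave 0 in KO mice with limma-voom or the replicate block and 3 with DESeq2, against 2. In WT mice it gave 1 with limma-voom, 2 without WT HFD 1, 2 and 4 and WT chow 1, and 4 with DESeq2 or the replicate block, against 3. Single calls lost also included Wt1 between depots for HFD in WT mice with limma-voom (-2.11, adjusted p = 0.123). Without 2 libraries the over-expression r of Krt19 turned positive, 0.23 with Msln and 0.0349 with Wt1, and at log2(CPM + 0.1) the loss-of-function r of Upk3b and Krt19 was 0.40 (adjusted permutation p = 0.0417). The criterion for pairing by replicate number (every pair's r over 0.1) was not met. Between groups r of same-numbered libraries ran from -0.646 to 0.734. Between depots of a condition, where the labels do not settle whether mice were shared, it ran from -0.402 to 0.339, with a median above that of other numbers in 5 of 6 conditions (KO HFD 0.122 against -0.0139, 5 of 8 pairs over 0.1). The replicate block also called Krt19 for HFD in WT epididymal fat (-1.91, adjusted p = 0.0144). Depth limits Upk3b, Wt1, Tcf21 and Msln in subcutaneous and Tbx15 and En1 in epididymal fat, at or near 3 counts a library.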

Other observations

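Other depot genes of subcutaneous fat showed no common direction on HFD. Of 11 listed genes 10 were tested. In KO mice 2 rose and 3 fell, where 11.7% of all genes rose and 9.05% fell. In WT mice 1 rose and 1 fell, where 22.6% of all genes rose and 21.5% fell. Hoxc10, a posterior homeobox factor, rose by 0.78 ± 0.17 on the log2 scale in KO mice (SE, edgeR adjusted p = 0.00112), and Sfrp2, a secreted Wnt inhibitor, fell by 1.34 ± 0.28 (adjusted p = 0.000701). Between KO and WT mice on HFD, 1 rose and 3 fell: Hoxc10 rose by 0.57 ± 0.17, and the T-box factor Tbx5 fell by 1.02 ± 0.24. Of all genes tested there, 18.9% were called in either direction. Under the mInhbe vector 0 of 10 rose and 2 fell, Hoxc10 by 0.41 ± 0.08 and the helix-loop-helix factor Twist1 by 0.58 ± 0.11. With the vector 15.8% of all genes rose and 11.4% fell.

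Some mesothelium genes that are also made outside mesothelium moved in subcutaneous fat on HFD. Of 11 tested 0 rose and 4 fell in KO mice, where 11.7% of all genes rose and 9.05% fell. In WT mice 2 rose and 4 fell, where 22.6% of all genes rose and 21.5% fell. Lrrn4 fell by 1.78 ± 0.42 in KO and by 2.69 ± 0.46 in WT mice. Cldn15, a claudin, rose by 1.15 ± 0.16 in WT mice.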
